A study of Mus musculus with 6 samples.

Results

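The 13 protein-coding genes of the mouse mitochondrial genome were followed through 6 libraries of sorted kidney cells. They were taken as every row of the deposited count table whose gene symbol starts with mt-, and they make up 13 of its 31815 mouse gene rows. By GENCODE M21 (GRCm38) the mitochondrial genome holds 37 genes, of which 13 code for proteins, 2 for ribosomal RNAs (rRNAs) and 22 for transfer RNAs (tRNAs). All 13 rows matched protein-coding genes by identifier and version. The rRNA and tRNA genes were not analysed here, so the mitochondrial counts below are those of the 13 coding genes. Shares of counts are taken over all gene rows unless stated otherwise. All 13 genes passed the filter on low counts.

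Poly(A) RNA came from the kidneys of male mice of 9 to 12 weeks and 25 to 30 g, collected on day 6 after ischemia reperfusion injury of both kidneys, in which the blood supply is stopped and then restored. Every animal carried the genotype Axin2CreERT2/+:R26RtdT/+:Acta2-GFP, that is, a tamoxifen-inducible Cre recombinase at Axin2, a Cre-dependent red reporter (tdTomato, tdT) and a green reporter (GFP) under Acta2. All animals received tamoxifen on days 2 and 4 after the injury, and none of the 6 libraries comes from an uninjured kidney. The tdT+GFP+ libraries (n = 3) hold GFP+ cells in which Axin2, a feedback target of canonical Wnt signalling, had been active when tamoxifen was given. The tdT-GFP+ libraries (n = 3) hold the GFP+ cells without the red label. From each of the kidneys 1, 2 and 3 both kinds of library were made, and replicate numbers below are those of the kidneys. Acta2, the marker by which myofibroblasts are commonly recognised, is also active in vascular smooth muscle, so the GFP gate is not restricted to myofibroblasts. The comparison asks how the Wnt-responsive cells differ from their unlabelled neighbours of the same injured kidneys.

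Total counts ran from 25697348 to 33029933 per library. The summed level of 12 myofibroblast and fibroblast markers ran from 51286 to 75822 CPM (counts scaled to a common library size) and overlapped between the groups. Markers of other cells were present in all libraries. The 12 endothelial markers summed to 1320 to 1798 CPM in tdT+GFP+ and 2104 to 3189 CPM in tdT-GFP+ libraries, and the 8 markers of distal nephron to 127 to 572 and 464 to 996 CPM. The 12 proximal tubule markers summed to 218 to 716 and 315 to 966 CPM, and the 10 macrophage markers to 443 to 1605 and 323 to 975.3 CPM. The 6 erythroid markers stood at 0.763 to 18.7 and 14.3 to 20.4 CPM in the same order, with 1 of them at 0 in all libraries, and no other marker was at 0 throughout. In bulk libraries a lower level can come from fewer cells of a type or from less RNA per cell, and these cannot be told apart.

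The mitochondrial genome is a small circle that encodes core subunits of the respiratory chain, which the organelle translates on its own ribosomes. Both strands are copied from end to end into long precursor RNAs, and the tRNAs that lie between most coding genes are cut out to release the messengers. Nearly all of these messengers are read from the heavy-strand transcript, and ND6 is the coding gene of the other one. Complexes I, III, IV and V mix mitochondrial and nuclear subunits, while complex II is entirely nuclear. In the kidney the tubule cells, above all those of the proximal tubule, are the cells known for dense mitochondria.

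The genes lie closely packed on chromosome M, and 3 pairs of members share more than 1 base. These pairs are printed because their counts cannot be fully separated by position. Capitals mark the shared bases, all sequences run 5′ to 3′ on the gene's own strand, and they come from the GENCODE M21 transcripts of GRCm38. mt-Atp8 (chrM:7766-7969, plus strand, 204 bases, shown whole) shares its last 43 bases with the start of mt-Atp6 (chrM:7927-8607, plus strand, 681 bases, shown to base 90).
mt-Atp8: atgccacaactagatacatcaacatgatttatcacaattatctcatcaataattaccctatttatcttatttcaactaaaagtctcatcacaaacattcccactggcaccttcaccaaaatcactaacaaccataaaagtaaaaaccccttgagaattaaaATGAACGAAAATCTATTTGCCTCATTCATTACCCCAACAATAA
mt-Atp6: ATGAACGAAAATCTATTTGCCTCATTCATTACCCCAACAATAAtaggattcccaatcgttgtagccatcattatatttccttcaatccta
mt-Nd4l (chrM:9877-10173, plus strand, 297 bases) shares 7 bases with mt-Nd4 (chrM:10167-11544, plus strand, 1378 bases), and 60 bases of each gene around the junction are shown.
mt-Nd4l: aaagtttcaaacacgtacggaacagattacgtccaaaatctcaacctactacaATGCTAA
mt-Nd4: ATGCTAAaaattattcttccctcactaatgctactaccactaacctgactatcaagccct
mt-Nd5 (chrM:11742-13565, plus strand, 1824 bases) and mt-Nd6 (chrM:13552-14070, minus strand, 519 bases) run towards each other and share 14 bases, so that the capitals of one line are the reverse complement of the other. The last 60 bases of each gene are shown.
mt-Nd5: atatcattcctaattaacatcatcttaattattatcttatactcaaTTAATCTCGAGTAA
mt-Nd6: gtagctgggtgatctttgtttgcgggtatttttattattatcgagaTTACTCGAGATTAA
In both plus-strand pairs the capitals open with the start codon of the downstream gene, ATG, and hold the stop codon of the upstream gene, TAA. Each of these pairs is known to stay together on 1 bicistronic messenger. mt-Atp6 and mt-Co3 also meet at 1 shared base, 8607. Per the labels the libraries keep the strand, but for the counting the use of strand is unknown (not given in the sources used here). Reads of mt-Nd6 and of RNA from the opposite strand may not have been told apart.

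Part of the mitochondrial genome has near-identical copies in nuclear DNA. Of the 13 members, 11 matched a nuclear gene model of GENCODE M21 with at least 90% identity over at least 100 bases. A stretch of chromosome 1 (24611535 to 24616197, minus strand) holds 7 annotated pseudogenes with at least 99% identity to mt-Co1, mt-Co2, mt-Atp6, mt-Co3, mt-Nd3, mt-Nd4l and mt-Nd4. The matches cover only 483 of the 1545 bases of mt-Co1 and 876 of the 1378 bases of mt-Nd4. On chromosome 2 a further model, Gm13340, matched mt-Co1 over 1545 bases with 97.6% identity. The copies of mt-Co2 (Gm28661, 681 bases), mt-Atp6 (Gm10925, 678 bases), mt-Co3 (Gm28437, 783 bases), mt-Nd4l (Gm10222, 294 bases) and mt-Nd4 (Gm28439, 876 bases) had 0 mismatches over the aligned bases. Of the 17 nuclear models 0 are rows of the table used here. The assignment of reads that match both places is likewise unknown, and the levels of these members are uncertain to that extent.

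Compared per length, mt-Co1 and mt-Co2 had the highest mean levels of the members and the complex I genes mt-Nd3, mt-Nd6 and mt-Nd5 the lowest. Levels are CPM on library sizes scaled by trimmed mean of M-values (TMM), divided by the coding length in kilobases. No allowance was made for fragment length, and its part in the levels of the shortest genes was not tested. mt-Co1, the catalytic subunit of complex IV, stood at 5206 ± 378 CPM per kb (SD, n = 6) and mt-Co2, the subunit that takes electrons from cytochrome c, at 4084 ± 729 CPM per kb. mt-Co1 lay above mt-Co2 in 6 of 6 libraries, but the ranges of these genes over the libraries overlapped.
mt-Atp6, which forms part of the proton channel of ATP synthase, had 3814 ± 870, mt-Co3 of complex IV 3465 ± 597 and mt-Cytb, the cytochrome b of complex III, 3132 ± 194 CPM per kb. Each of these neighbours in the order overlapped with the next. A gap followed between mt-Cytb and mt-Nd1, the only neighbours whose ranges did not overlap, with mt-Cytb above in 6 of 6 libraries by 1.44-fold.
The complex I genes and mt-Atp8, a small subunit of the stalk region of ATP synthase, made up the lower part. mt-Nd1 had 2172 ± 346, mt-Nd4 1727 ± 249, mt-Nd4l 1647 ± 498, mt-Nd2 1101 ± 171, mt-Nd5 1052 ± 87.8, mt-Nd6 867 ± 106 and mt-Nd3 818 ± 262 CPM per kb. mt-Atp8 had 1772 ± 1227 CPM per kb, and its ordering against mt-Nd4 held in 2 of 6 libraries. mt-Nd4l and mt-Nd2 were ordered alike in 6 of 6 libraries, as were mt-Nd5 and mt-Nd6, yet the ranges of both pairs overlapped.

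**Figure D1:**
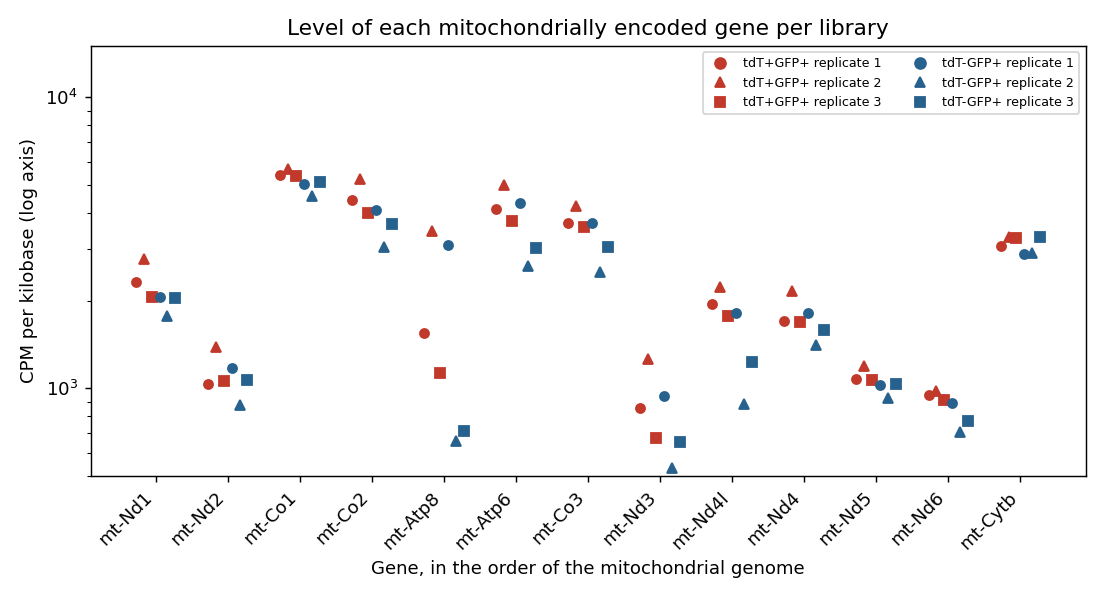
CPM per kilobase (log axis) of each of the 13 genes in genome order, with 1 point per library, colour for the group and shape for the kidney. The points of mt-Cytb lie within 2897 to 3310, while those of mt-Atp8 spread from 659 to 3480.

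Mitochondrial transcripts took a slightly larger mean share of the counts in tdT+GFP+ cells, but the groups overlapped. The share was 2.97%, 3.40% and 2.83% in tdT+GFP+ replicates 1, 2 and 3 and 2.84%, 2.41% and 2.83% in tdT-GFP+ replicates 1, 2 and 3. Replicate 2 held both the highest and the lowest of the 6 values, and the other 4 libraries lay between 2.83% and 2.97%. Counting error is small beside this, with 95% Wilson intervals of 0.00579 to 0.00641 percentage points on either side. These intervals cover counting error only.
The means were 3.07% ± 0.294 in tdT+GFP+ and 2.69% ± 0.246 in tdT-GFP+ cells (SD, n = 3 each), a difference of 0.376 percentage points (exact permutation test, two-sided, p = 0.2, where 3 against 3 cannot go below 0.1). By kidney the difference was 0.134 points in kidney 1, 0.989 in kidney 2 and 0.0035 in kidney 3. Without replicate 2 of tdT+GFP+ cells it was 0.211, and without replicate 2 of tdT-GFP+ cells 0.234 points.
Other measures differed between the same libraries. The share on the gene models AY036118 and Gm42418, which overlap an annotated nuclear rRNA gene, was 0.577%, 0.420% and 0.648% in tdT+GFP+ and 0.838%, 1.11% and 1.28% in tdT-GFP+ replicates 1, 2 and 3. Here the groups did not overlap (exact permutation test, two-sided, p = 0.1, the smallest possible). The sums of the 12 endothelial markers did not overlap either, with 1320 to 1798 CPM in tdT+GFP+ and 2104 to 3189 CPM in tdT-GFP+ libraries. DESeq2 called 10 of these markers lower in tdT+GFP+ cells, against 1.71% of all genes, while edgeR called 0 of them and 0% of all genes. The macrophage markers were highest in tdT+GFP+ replicate 2 (1605 CPM) and lowest in tdT-GFP+ replicate 2 (323 CPM), the same libraries as for the mitochondrial share. The proximal tubule markers had 716 CPM in tdT+GFP+ replicate 2 and 315 CPM in tdT-GFP+ replicate 2, but their highest sum, 966 CPM, was in tdT-GFP+ replicate 3. The 12 genes of a dissociation and stress list ran the other way, with the lowest sum in tdT+GFP+ replicate 2 (14042 CPM) and the highest in tdT-GFP+ replicate 2 (26836 CPM). Their sums were 17291 and 23545 CPM in tdT+GFP+ replicates 1 and 3 and 20146 and 18783 CPM in tdT-GFP+ replicates 1 and 3, so that the groups overlapped. In edgeR 0 of the 12 genes were called (1 at an unadjusted p under 0.05), as were 0% of all genes. The part of these differences in the mitochondrial share was not tested.

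**Figure D2:**
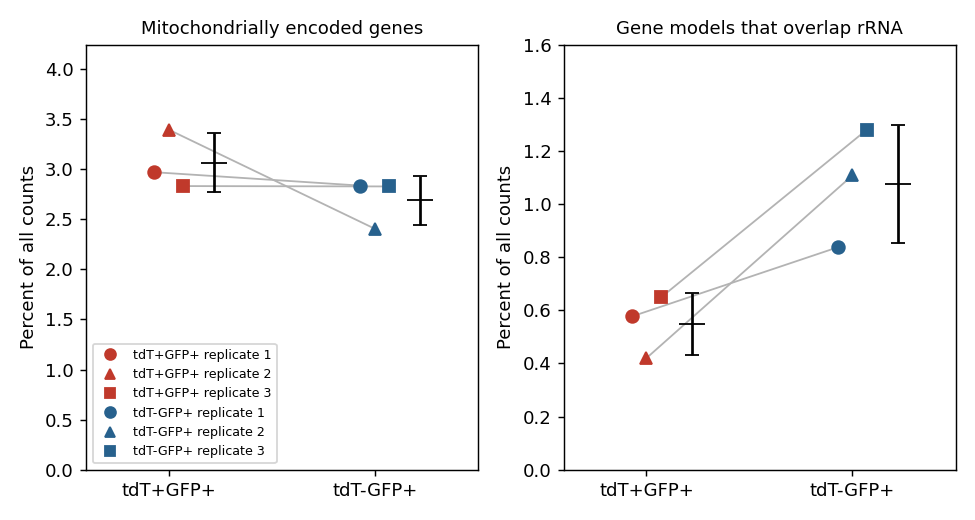
Percent of all counts on the 13 mitochondrial genes (left) and on gene models that overlap rRNA (right), with 1 point per library, lines joining the libraries of a kidney, and bars for the mean and SD of 3 libraries. On the left the lines of kidneys 1 and 3 are nearly flat and that of kidney 2 falls from 3.40% to 2.41%, while on the right all 3 lines rise.

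No mitochondrial gene passed the threshold between the populations, although all 13 fold changes were positive, that is, higher in tdT+GFP+ cells. In edgeR's quasi-likelihood test 0 of 13 members and 0 of 15462 genes tested had a Benjamini-Hochberg adjusted p under 0.05 (0% called in each direction), and at an unadjusted p under 0.05 there were 1 member, with a positive value, and 1650 genes (3.71% of genes with positive and 6.97% with negative values). DESeq2 called 0 of 13 members, with a background of 0.114% of genes called higher and 1.71% lower, and 0 of 13 with the kidney as a block (0.248% and 1.62%). The median log2 fold change of the members was 0.29, against -0.00039 over all genes tested, of which 49.9% were positive. The members are cut from shared precursors, so their 13 signs are not separate observations.
The positive direction rested largely on kidney 2. Of the 13 genes, 12 were highest in tdT+GFP+ replicate 2 and 12 lowest in tdT-GFP+ replicate 2. Without both libraries of kidney 2 the median was 0.08 and 9 of 13 values were positive. It was 0.13 with 12 positive without tdT+GFP+ replicate 2 alone, and 0.18 with 13 positive without tdT-GFP+ replicate 2 alone. For 7 members the level was higher in tdT+GFP+ cells in all 3 kidneys, as it was for 15.4% of all genes.

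Among the complex I genes mt-Nd6, the gene of the light-strand transcript, had the smallest p of all members. It stood at 492, 508 and 472 CPM in tdT+GFP+ and 461, 366 and 401 CPM in tdT-GFP+ replicates 1, 2 and 3. The groups did not overlap, with a log2 fold change of 0.26 (SE 0.11, 95% interval 0.0041 to 0.52), an unadjusted p of 0.047 and an adjusted p of 0.462 in edgeR. Over all genes, 7.23% had every tdT+GFP+ library above every tdT-GFP+ library, and of the members 4 did so, namely mt-Nd1, mt-Co1, mt-Nd5 and mt-Nd6.
mt-Nd1, a membrane subunit at the quinone site, had 2224, 2664 and 1965 CPM against 1962, 1700 and 1954 CPM. Its groups were separated by the narrow gap between 1965 and 1962 CPM (log2 fold change 0.29, SE 0.15, adjusted p = 0.497). mt-Nd5, a proton-pumping subunit, had 1970, 2173 and 1944 against 1866, 1682 and 1881 CPM (0.17, SE 0.11, adjusted p = 0.561). 
mt-Nd4l, a small membrane subunit, had the largest fold change of the members. Its levels were 579, 664 and 527 CPM in tdT+GFP+ and 537, 262 and 365 CPM in tdT-GFP+ cells. The tdT+GFP+ libraries and tdT-GFP+ replicate 1 lay close together, and tdT-GFP+ replicates 2 and 3 lay below them. edgeR put the difference at 0.60 on the log2 scale, with an SE of 0.26, an interval (95%) of -0.016 to 1.22 and an adjusted p of 0.468, and with differences of 0.11, 1.34 and 0.53 in kidneys 1, 2 and 3, and over the alternatives it ran from 0.29 to 0.94.
mt-Nd3, another small membrane subunit, had 297, 439 and 235 against 327, 185 and 227 CPM, with overlapping groups (0.40, SE 0.29, adjusted p = 0.594). For mt-Nd2 and mt-Nd4, both of the proton-pumping arm, the edgeR estimates were 0.16 (SE 0.17) and 0.20 (SE 0.15) on the log2 scale. These genes and mt-Nd3 had negative values of -0.10, -0.01 and -0.06 for mt-Nd2, mt-Nd4 and mt-Nd3 without both libraries of kidney 2.

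mt-Cytb of complex III and mt-Co1 of complex IV had the smallest coefficients of variation of the members, while those of mt-Co2 and mt-Co3 were larger, at 17.9% and 17.2%. mt-Cytb had 3522, 3778 and 3756 CPM in tdT+GFP+ and 3314, 3338 and 3787 CPM in the tdT-GFP+ libraries, and a log2 fold change of 0.08 (SE 0.12, 95% interval -0.19 to 0.36, adjusted p = 0.776). Its coefficient of variation over the 6 libraries was 6.18%, the smallest of the members, against a median of 9.79% over the 1876 genes with a mean of at least 100 CPM. mt-Co1 had 8362, 8787 and 8314 against 7779, 7097 and 7919 CPM (0.16, SE 0.12, adjusted p = 0.604), so that its groups did not overlap, and its coefficient of variation was 7.27%. Of the 13 members, 10 had a larger coefficient of variation than that median.
mt-Co2 had 3025, 3578 and 2747 against 2812, 2092 and 2508 CPM (0.33, SE 0.16, adjusted p = 0.491), and mt-Co3 had 2903, 3315 and 2816 against 2902, 1972 and 2391 CPM (0.31, SE 0.17, adjusted p = 0.507). In both genes the tdT-GFP+ library of kidney 1 lay within the range of the tdT+GFP+ libraries.

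Of the ATP synthase genes, mt-Atp8 varied most of all members and mt-Atp6 less. mt-Atp6 had 2821, 3402 and 2566 CPM in tdT+GFP+ and 2941, 1787 and 2067 CPM in tdT-GFP+ cells (log2 fold change 0.37, SE 0.22, adjusted p = 0.528). mt-Atp8 had 316, 710 and 229 CPM against 634, 134 and 145 CPM. Its highest value, in tdT+GFP+ replicate 2, was 5.28 times its lowest, in tdT-GFP+ replicate 2, and the next highest was in tdT-GFP+ replicate 1. The coefficient of variation of mt-Atp8 was 69.3%, followed by 32.0% for mt-Nd3 and 30.2% for mt-Nd4l.
The log2 fold change of mt-Atp8 was 0.46 with a wide interval from -1.26 to 2.17 (SE 0.71, adjusted p = 0.802). By kidney it was -1.01, 2.40 and 0.66 in kidneys 1, 2 and 3, and it turned to -0.16 without tdT+GFP+ replicate 2 and to -0.52 without both libraries of kidney 2. Without tdT+GFP+ replicate 2 and tdT-GFP+ replicate 1 together, the libraries highest in mt-Atp8, all 13 members had positive values with a median of 0.34 and 0 passed.

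**Figure D3:**
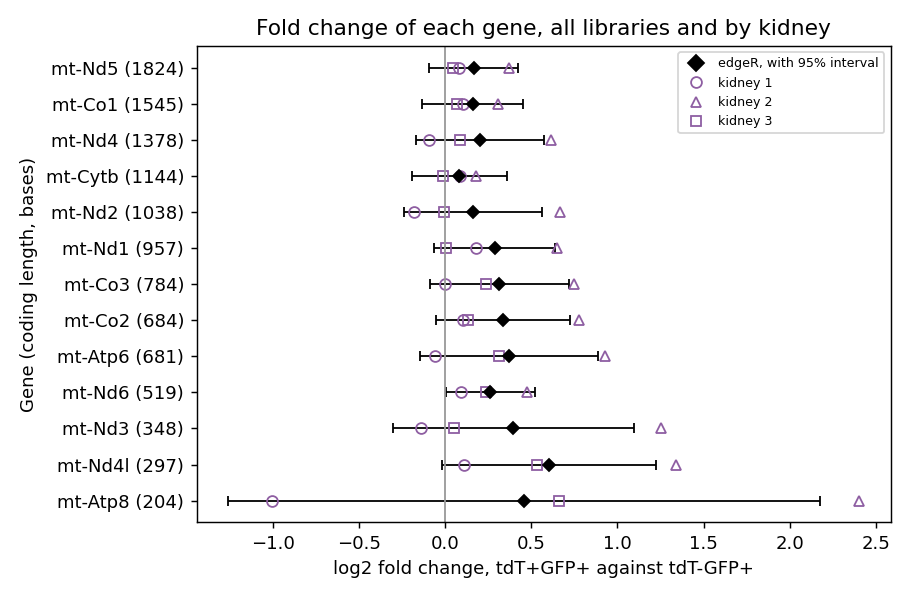
Log2 fold changes of the 13 genes ordered by coding length, with filled diamonds and bars for the edgeR estimate and its 95% interval and open symbols for each kidney. The triangles of kidney 2 lie at the right end for every gene, from 0.18 for mt-Cytb to 2.40 for mt-Atp8.

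The make-up of the mitochondrial counts by complex was much alike in all libraries. Complex I genes (7) took 29.6% to 31.5%, complex IV genes (3) 45.6% to 47.8%, mt-Cytb of complex III 11.0% to 14.2% and the complex V genes (2) 8.19% to 12.2% of them. The means were 30.4% ± 1.02 and 30.2% ± 0.166 for complex I, 47.0% ± 1.29 and 47.1% ± 0.842 for complex IV, 11.9% ± 0.994 and 13.2% ± 1.63 for mt-Cytb, and 10.7% ± 1.17 and 9.54% ± 2.32 for complex V in tdT+GFP+ and tdT-GFP+ cells (SD, n = 3 each). For the 5 shares tested the unadjusted exact permutation p-values were 0.3 to 1.0 (two-sided), with an adjusted p of 1.0 for each. With 3 against 3 libraries p cannot go below 0.1, so that no share could pass the threshold of 0.05. The shares also depend on one another, since those of the complexes add up to the whole and mt-Nd6 belongs to complex I.
The fifth share tested is that of mt-Nd6, the coding gene of the light-strand transcript. Whether the counting kept this transcript apart from RNA of the opposite strand is unknown. The share of mt-Nd6 was 1.64%, 1.48% and 1.63% in tdT+GFP+ and 1.58%, 1.56% and 1.49% in tdT-GFP+ cells. The highest value was 1.11 times the lowest.

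Below the level of complexes, the shares of the 3 shortest genes varied most between libraries in relative terms. The members under 400 bases, mt-Atp8, mt-Nd4l and mt-Nd3, together took 3.98%, 5.27% and 3.42% of mitochondrial counts in tdT+GFP+ and 5.12%, 2.48% and 2.73% in tdT-GFP+ replicates 1, 2 and 3. This grouping was chosen after the values were seen and is given as a description. Relative to its 6-library mean, the share of mt-Atp8 deviated by 1.01 in tdT+GFP+ replicate 2, 1.08 in tdT-GFP+ replicate 1, -0.84 in tdT-GFP+ replicate 2 and -0.93 in tdT-GFP+ replicate 3 on the log2 scale. For mt-Nd5, the longest member, the same deviations were -0.08, -0.07, 0.10 and 0.06. Of the nuclear protein-coding genes with a mean of at least 10 CPM, 30 had a longest transcript under 600 bases. The median log2 deviation of their levels from the 6-library mean was 0.11, -0.03 and 0.04 in tdT+GFP+ replicates 1, 2 and 3. In tdT-GFP+ replicates 1, 2 and 3 it was -0.14, 0.16 and -0.09. The part of gene length in the mitochondrial shares was not tested.

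**Figure D4:**
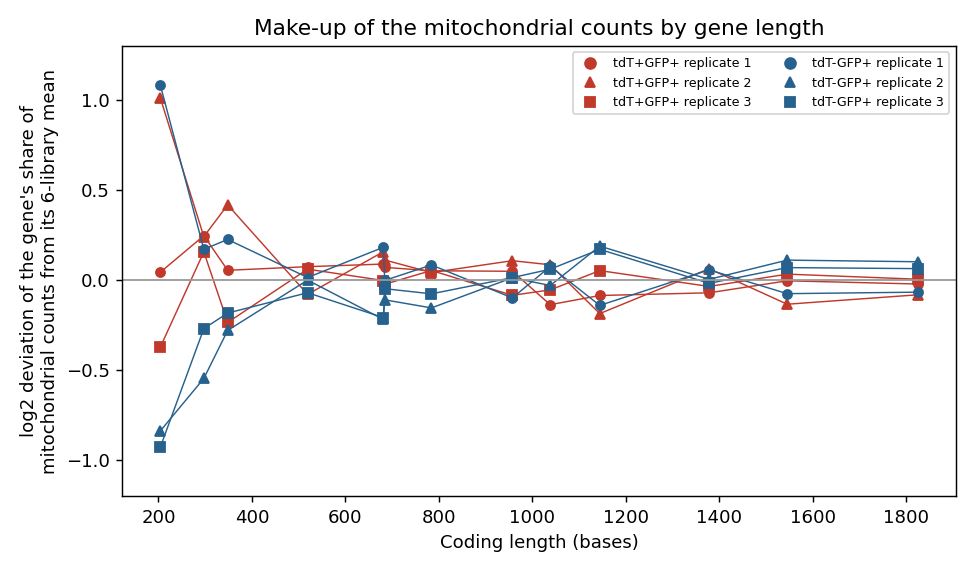
Log2 deviation of each gene's share of the mitochondrial counts from its mean over 6 libraries, against its coding length in bases, with 1 line per library. The lines fan out to 1.08 and -0.93 at mt-Atp8 (204 bases) and stay within -0.22 and 0.19 from 519 bases upwards.

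The overlapping neighbours printed above were compared as ratios of counts per base within each library. For mt-Atp8 over mt-Atp6, which sit on 1 messenger, the ratio was 0.374, 0.697 and 0.299 in tdT+GFP+ and 0.719, 0.251 and 0.234 in tdT-GFP+ replicates 1, 2 and 3. It was below 1 in all 6 libraries and differed 3.07-fold between them, with the highest values in tdT-GFP+ replicate 1 and tdT+GFP+ replicate 2. For mt-Nd4l over mt-Nd4, the other bicistronic pair, it was 1.14, 1.04 and 1.05 in tdT+GFP+ and 0.995, 0.627 and 0.772 in tdT-GFP+ cells. Here all tdT+GFP+ libraries lay above all tdT-GFP+ libraries, and tdT-GFP+ replicate 1 came closest. For mt-Nd6 over its opposite-strand neighbour mt-Nd5 it was 0.878, 0.822 and 0.853 against 0.869, 0.765 and 0.748, a 1.17-fold range with overlapping groups. The bases are those of the full coding length, without allowance for fragment length. The ratios were chosen with the members' values in view and were not tested.

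Of the nuclear genes for the other subunits of the same complexes none passed the threshold in edgeR, which called 0 of all 15462 genes tested. The counts of called genes therefore do not set any list apart. The median fold change of each list was nearer 0 than that of the mitochondrial genes. The lists named here were written with earlier results of these data known. Of 37 nuclear subunits of complex I, 13 had positive and 24 negative log2 fold changes, with a median of -0.08 and a range from -0.20 to 0.09, and 0 were called. The accessory subunit genes Ndufb3 (18.5, 19.0 and 20.5 against 20.7, 23.4 and 22.7 CPM) and Ndufa8 (38.1 ± 0.520 against 41.1 ± 2.08 CPM, SD, n = 3 each) had the smallest p, with log2 fold changes of -0.20 (SE 0.09) and -0.11 (SE 0.07). In both genes all tdT+GFP+ libraries lay below all tdT-GFP+ libraries, as was the case for 8.60% of all genes.
Complex II, which has no mitochondrial subunit, had a median of -0.02 over 4 genes. Complex III had -0.02 over 9, complex IV -0.03 over 13 tested and complex V 0.03 over 15 tested. The ubiquinol-binding subunit gene Uqcrq of complex III had 58.9, 59.9 and 57.1 against 50.4, 55.9 and 50.6 CPM (log2 fold change 0.17, SE 0.07, adjusted p = 0.466). Cox4i2, an alternative subunit 4 of complex IV, was low at 1.01, 0.870 and 2.74 against 2.34, 4.22 and 4.67 CPM (-1.29, SE 0.51, adjusted p = 0.456), with overlapping groups.

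Genes that copy, process and maintain the mitochondrial genome and its RNA also did not pass in edgeR, which called 0% of all genes. The mitochondrial RNA polymerase gene Polrmt had a log2 fold change of -0.0063 (SE 0.08), and Tfam, whose product packages the mitochondrial genome and starts its transcription, had 0.13 (SE 0.08) at 18.3, 18.4 and 19.5 against 16.8, 16.3 and 18.2 CPM. All 3 tdT+GFP+ values of Tfam lay above the tdT-GFP+ values, as was the case for 7.23% of all genes. The 10 genes of the transcription list had a median of 0.12, with 8 positive and 0 called, and the 9 of mitochondrial DNA replication a median of -0.04, with 3 positive and 0 called.
Of 22 genes of mitochondrial RNA processing and stability 16 had positive values (median 0.10) and 0 were called. Pnpt1, which encodes the polynucleotide phosphorylase, had 23.1, 23.1 and 21.9 against 19.6, 19.6 and 19.5 CPM (log2 fold change 0.21, SE 0.07, adjusted p = 0.438). Elac2, the nuclease that cuts precursors at the 3′ ends of tRNAs, had 22.7, 21.5 and 22.2 against 18.8, 19.9 and 19.3 CPM (0.20, SE 0.07, adjusted p = 0.447). These genes had the smallest p of the list. In both, all tdT+GFP+ libraries lay above all tdT-GFP+ libraries, as was the case for 7.23% of all genes. Lrpprc and Slirp, whose products form the complex that stabilises mitochondrial messengers, had 0.09 (SE 0.11) and -0.04 (SE 0.10).
The 78 genes of the mitochondrial ribosome were split evenly, with 41 positive and 37 negative values, a median of 0.0057 and 0 called. Mrps26, of its small subunit, had 0.29 (SE 0.11, adjusted p = 0.447). Of the 9 regulators of mitochondrial biogenesis 0 were called and 4 were positive. The coactivator genes Ppargc1a and Ppargc1b had values of opposite sign, -0.88 (SE 0.38) and 0.46 (SE 0.18), at 3.05, 4.19 and 5.37 against 4.67, 6.61 and 11.8 CPM for Ppargc1a and 3.94, 4.61 and 3.69 against 2.80, 2.84 and 3.26 CPM for Ppargc1b. The mitochondrial deacetylase gene Sirt3 had -0.61 (SE 0.22, adjusted p = 0.444).

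Of the 223 tested genes of these 11 lists 1 was called by another tool, and it moved with the rRNA-overlapping gene models. Lars2, the mitochondrial leucyl-tRNA synthetase gene, had 382, 282 and 444 CPM in tdT+GFP+ and 532, 711 and 784 CPM in tdT-GFP+ replicates 1, 2 and 3. All tdT+GFP+ libraries lay below all tdT-GFP+ libraries, as was the case for 8.60% of all genes. The log2 fold change was -0.87 (SE 0.21, adjusted p = 0.399 in edgeR, 0.00647 in DESeq2 and 0.00242 in DESeq2 with the kidney as a block). The order of the 6 libraries was the same as for the share of the rRNA-overlapping models, from 0.420% in tdT+GFP+ replicate 2 to 1.28% in tdT-GFP+ replicate 3. The part of those reads in the counts of Lars2 was not tested. The other 16 synthetase genes had fold changes from -0.28 to 0.31, led by Mars2 at 0.31 (SE 0.18).

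**Figure D5:**
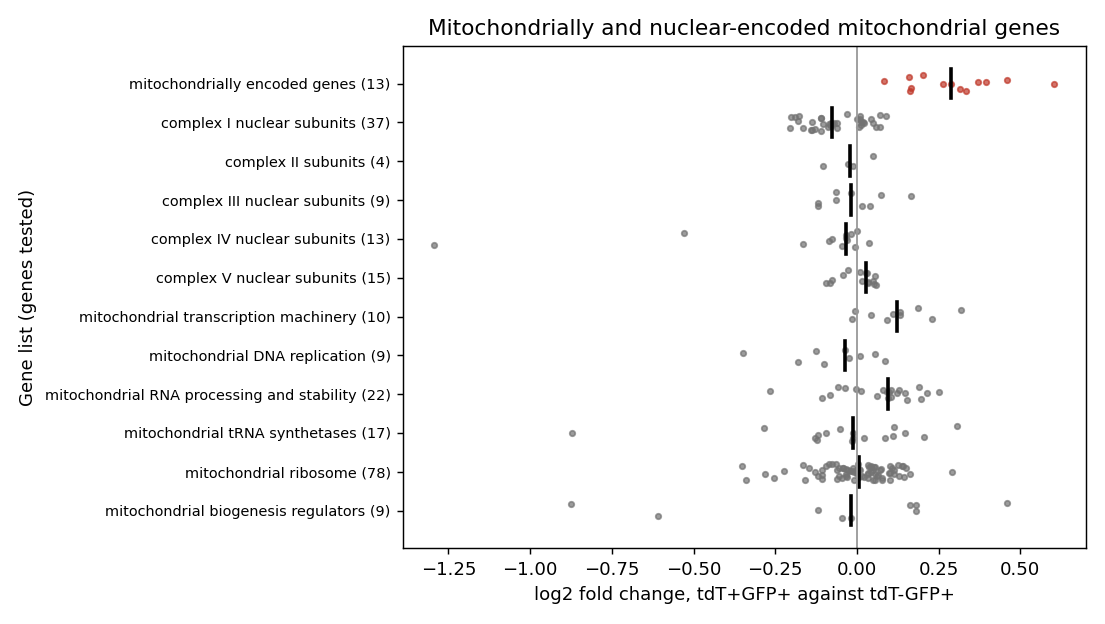
Log2 fold changes of the 13 mitochondrially encoded genes (top) and of 11 lists of nuclear genes for mitochondrial functions, with 1 point per gene and a bar at the median. The mitochondrial genes lie between 0.08 and 0.60 with a median of 0.29, and the medians of the other lists lie between -0.08 and 0.12.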

How the data were processed

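RNA was measured in 6 libraries, 3 per group. The deposited values are estimated counts per gene (RSEM output, per the file headers), already whole numbers. The submitters' processing notes name RSEM 1.2.28 and STAR 2.6.1 beside R 3.6.3, DESeq2 1.26.0 and bcl2fastq 2.20, and the builds mm10 and GRCh38, with no annotation release. The 92 rows of spike-in controls, all at 0, were left out. Of the 31815 gene identifiers 31748 matched GENCODE M21 without version numbers.

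After filterByExpr and TMM scaling, the quasi-likelihood test of edgeR 4.0.16 (robust glmQLFit, group alone, R 4.3.3) was run over all genes. Calls have an adjusted p (Benjamini-Hochberg) under 0.05. Log2 fold changes are unshrunken (no prior count), and each SE was derived from the fold change and its F statistic. Shares were compared by exact permutation over libraries. Nuclear copies were searched with megablast. The procedure was tested on simulated data. Alternatives were other scalings and filters, DESeq2 1.42.0, limma-voom 3.58.1, the kidney as a block, and leaving out libraries.

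All 13 members were described. Of each nuclear list up to 4 genes with the smallest p could be named, and Polrmt, Tfam, Lrpprc and Slirp always. The members and lists were chosen with earlier results of these data known. The planned shares of rRNA and tRNA genes were not computed, since the mt- rows are coding genes.

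Libraries with the same number share a kidney, per the labels, and are therefore pairs. Their deviations from the group means correlated by 0.0385, -0.58 and -0.30 in kidneys 1, 2 and 3.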

Additional observations from a re-analysis of the deposited data

How the results depend on the processing

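Each member was refitted under 19 alternatives, 247 values in all, and 0 passed the threshold (smallest adjusted p = 0.141). The direction was kept in all but 5, namely mt-Atp8 without tdT+GFP+ replicate 2 (-0.16, in a range up to 1.60 over the single libraries left out) and, without both libraries of kidney 2, mt-Atp8 (-0.52), mt-Nd2 (-0.10), mt-Nd3 (-0.063) and mt-Nd4 (-0.013). Over all genes edgeR called 0 under every scaling, filter and omission tried, and limma-voom called 0. DESeq2 called 18 genes higher and 269 lower, and with the kidney as a replicate block 38 and 249, with 1 gene of the nuclear mitochondrial lists in each case and 0 members. The cause was not tested. Pairing by kidney in edgeR called 0 genes, and the exact sign-flip test of the share of mitochondrial counts gave p = 0.25 for the difference of 0.376 points, the smallest that 3 pairs allow. That share difference ran from 0.211 to 0.493 points when each library was left out, and from 0.338 to 0.365 with other numerators and denominators. The small kidney 3 difference (0.0035 points) then turned negative. It was -0.0160 without the members under 400 bases. With haemoglobin and rRNA-overlapping models out of the denominator it was -0.0147, and over protein-coding genes alone -0.0151. For each of these measures the exact sign-flip test gave p = 0.5. The exact permutation test (two-sided) gave p = 0.2, 0.3 and 0.3 in the same order. The small differences in make-up changed sign: with single libraries left out, complex I ran from -0.377 (without tdT+GFP+ replicate 2) to 0.599 points and complex IV from -0.529 to 0.703, positive without replicate 2 of either group or tdT-GFP+ replicate 3. Without tdT+GFP+ replicate 2 and tdT-GFP+ replicate 1 together they were -0.293 and 0.216. The last omission and the numerator without the members under 400 bases were chosen after seeing the data. Since the mt- rows are all coding genes and 0 nuclear copies are in the table, the alternatives with coding rows alone or with added copies left the shares as they were. For the mitochondrial share, counting error was small beside the spread between libraries. The part of depth in the other comparisons was not tested.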
